A study of Mus musculus with 22 samples.

Results

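The genes described here are 8 regulators and markers of neuroectoderm, the embryonic layer that gives rise to the nervous system: Neurog1, Olig1, Six3, Otx1, Pax6, Sox1, Irx3 and Tubb3. They were taken by name from the 49980 genes of the mouse annotation. Every region that lay within 2500 bp of a gene's annotated extent was assigned to it, which gave 31 H3K27ac regions over 8 genes and 2 H3K9me3 regions over 2 genes. H3K27ac is an acetylated histone found at active promoters and enhancers, and H3K9me3 is a methylated histone found in silent heterochromatin. The genes are referred to by their leading region, the one with the highest mean over the 6 libraries of a mark.

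Both marks were mapped by chromatin immunoprecipitation with sequencing in 3 lines of induced pluripotent stem (iPS) cells made from C57BL/6 mouse embryonic fibroblasts, with 2 libraries per line and mark. C2 cells had received ZFATF1, ZFATF2 and ZFATF3, which are artificial transcription factors built on zinc fingers, and C3 cells had received ZFATF1, ZFATF2 and ZFATF4. OSKM cells had received Oct4 in their place. All 3 lines also received Sox2, Klf4 and c-Myc, carried an Oct4-MerCreMer and Tomato/GFP reporter, and were treated with 100 nM 4-hydroxytamoxifen. Each factor set is 1 line, and the labels do not say whether a line is a single clone or whether its libraries come from separate cultures, so a difference between lines and a difference between factor sets cannot be told apart. In addition, the HA tag on the artificial factors was mapped in C2 cells at day 20 after transduction, which were not yet fully reprogrammed, and in negative control cells labelled Empty, which also received Sox2, Klf4 and c-Myc.

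In the embryo, Sox1 is among the earliest transcription factors of neural progenitors, and Pax6, Six3 and Otx1 are homeodomain factors that pattern the forebrain and eye. Irx3 is an Iroquois homeodomain factor of the more posterior neural tube. Neurog1 and Olig1 are basic helix-loop-helix factors of neuronal and oligodendrocyte progenitors, and Tubb3 encodes the beta-tubulin that marks young neurons. In pluripotent cells such genes are largely silent, and many are held in a poised state from which differentiation signals release them.

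Promoter sequences were available for 6 of the 8 genes, from RefSeq on GRCm38.p6 (mm10), as 300 bases from 250 before to 50 after the start site. Those of Neurog1, Sox1, Irx3 and Tubb3 are shown because H3K27ac regions cover or flank their start sites, and their H3K27ac is compared between lines below. Capitals mark the GC box (GGGCGG on either strand), which is bound by Sp and Klf proteins, and the octamer (ATGCAAAT on either strand), which is bound by POU proteins such as Oct4.
Neurog1 (chr13:56252131-56252430, minus strand): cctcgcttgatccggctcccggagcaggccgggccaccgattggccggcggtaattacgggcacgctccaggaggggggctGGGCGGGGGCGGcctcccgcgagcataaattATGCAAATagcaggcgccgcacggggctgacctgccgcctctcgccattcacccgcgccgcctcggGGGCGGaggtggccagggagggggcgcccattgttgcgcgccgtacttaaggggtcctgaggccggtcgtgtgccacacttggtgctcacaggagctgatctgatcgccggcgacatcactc
Sox1 (chr8:12395269-12395568, plus strand): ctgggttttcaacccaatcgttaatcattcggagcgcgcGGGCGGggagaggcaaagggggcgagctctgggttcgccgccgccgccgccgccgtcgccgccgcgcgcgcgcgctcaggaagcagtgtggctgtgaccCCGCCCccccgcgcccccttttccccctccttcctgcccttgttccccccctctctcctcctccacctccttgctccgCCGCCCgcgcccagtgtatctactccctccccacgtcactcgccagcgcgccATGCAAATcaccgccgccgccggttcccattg
Irx3 (chr8:91801605-91801904, minus strand): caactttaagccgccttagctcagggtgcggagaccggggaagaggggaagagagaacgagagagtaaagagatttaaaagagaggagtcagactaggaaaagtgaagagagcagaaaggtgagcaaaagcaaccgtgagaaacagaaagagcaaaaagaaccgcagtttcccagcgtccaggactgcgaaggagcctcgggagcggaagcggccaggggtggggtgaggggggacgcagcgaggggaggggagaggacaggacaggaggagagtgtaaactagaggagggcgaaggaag
Tubb3 (chr8:123411303-123411602, plus strand): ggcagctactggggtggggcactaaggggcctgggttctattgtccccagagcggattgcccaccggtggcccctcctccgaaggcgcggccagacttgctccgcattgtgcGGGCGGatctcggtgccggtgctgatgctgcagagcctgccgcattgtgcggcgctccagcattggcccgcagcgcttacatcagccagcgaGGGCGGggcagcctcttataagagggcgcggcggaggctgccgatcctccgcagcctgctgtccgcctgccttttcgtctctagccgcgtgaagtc
The Neurog1 promoter held 3 GC boxes and 1 octamer, which began 138 bases before the start site. The Sox1 promoter held 3 GC boxes and 1 octamer, which began 18 bases after the start site. Tubb3 held 2 GC boxes and no octamer, and Irx3 held neither motif. The GC box occurred in 35.7% and the octamer in 1.74% of the 32851 promoters in the table. CG dinucleotides numbered 32 in Neurog1, 37 in Sox1, 14 in Irx3 and 26 in Tubb3, against a median of 7 over all promoters. A motif match describes the letters only and shows no binding.

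Levels are given in RPM, the reads of a region per 1000000 reads in all regions of its mark in that library. All 10 pluripotency marker genes had a region, and each lay between percentile 97.7 and percentile 100 of all 135566 H3K27ac regions. Of these, 6 fell in C2 against OSKM, where 9.0% of leading regions of genes were called lower, and 1 fell in C3, where 8.84% were. The C3 call is Zfp42, which lies on chromosome 8, a chromosome that was lower as a whole in both lines. The summed level of the 10 genes was 2165 and 1921 RPM in C2, 2790 and 2172 in C3, and 3404 and 3282 in OSKM. Of 9 fibroblast markers, Col1a2 had no region and Postn and Col3a1 were near the floor of 1 read, while Loxl1 was at percentile 100. Over the 8 listed fibroblast genes with a region, the summed level was 421 and 363 RPM in C2, 585 and 408 in C3, and 584 and 569 in OSKM, most of it at Loxl1. Without Loxl1 the sums were 24.3 and 28.9 RPM in C2, 21.7 and 25.7 in C3, and 14.1 and 21.4 in OSKM, with all C2 and C3 libraries above both OSKM libraries. No fibroblast marker was called among the 7 tested in C2 and the 6 tested in C3. Of 7 endoderm markers, 3 rose in C2 and 6 in C3 against OSKM, where 3.86% and 9.95% of leading regions of genes were called higher. Their summed level was 234 and 146 RPM in C2, 309 and 221 in C3, and 40.4 and 64.8 in OSKM. Of 6 neural crest and glia markers, Aqp4 had no region, and 1 rose in C2 and 2 in C3, against the same background shares. S100b rose in both lines and was at the floor of 1 read in both OSKM libraries, and Foxd3 rose in C3 only. Their summed level was 81.7 and 62.8 RPM in C2, 76.0 and 85.3 in C3, and 38.2 and 41.8 in OSKM. Most of this sum was at Foxd3 in every library, so the difference in the sum is mainly that of 1 gene. The part of these markers in the results below was not tested. Fewer cells with a mark and less of the mark per cell cannot be told apart in such libraries. Reads in H3K27ac regions numbered 12943968 and 7033486 in C2, 17649231 and 10857991 in C3, and 12400030 and 13988581 in OSKM. C2 replicate 2 stood apart: it had the fewest reads, its peaks had the lowest median fold enrichment of the 6 H3K27ac libraries at 3.62, and its own peak list held no peak at 6 of the 8 genes. At those genes, its values therefore come from regions called in other libraries.

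All 8 genes carried H3K27ac regions, as did 59.6% of annotated genes. Per kilobase, the mean over the 6 libraries was highest at Tubb3, with 9.68 RPM, followed by 8.0 at Olig1, 7.86 at Sox1, 4.67 at Pax6, 4.48 at Irx3, 3.56 at Six3, 3.47 at Otx1 and 2.89 at Neurog1. This order is that of the pooled mean and differed between lines. In C2, Olig1 (7.02 RPM per kb) lay above Tubb3 (6.63), and in OSKM, Neurog1 (5.34) lay above Pax6 (4.39), Otx1 (2.37) and Six3 (1.62). The leading regions lay between percentile 65.1, at Neurog1, and percentile 95.7, at Tubb3, of all H3K27ac regions. All lay below the lowest pluripotency marker, Dppa4. The number of recovered reads behind a leading region ranged from 5 to 766 per library, with a median of 94.5. H3K27ac has no strand, and several of these regions also overlap a neighbouring gene, whose share of the signal cannot be told apart: Six3os1 at Six3, Gm32517 at Otx1, Sox1ot at Sox1 and Mc1r at Tubb3. The leading region of Irx3 overlaps Irx3os and not Irx3 itself.

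The first comparison asked how H3K27ac differed in C2 from OSKM. Among the 8 leading regions, 3 fell and 0 rose in C2 at an adjusted p under 0.05 (limma, Benjamini-Hochberg over 100957 regions). In the background of 20702 leading regions of genes, 12.9% were called, 9.0% lower (1864 regions) and 3.86% higher (800 regions). The regions that fell belong to Tubb3, Irx3 and Olig1, of which Tubb3 and Irx3 lie on chromosome 8, a chromosome that was lower as a whole. The median log2 fold change over the 8 genes was -1.07, against -0.28 over all leading regions. The median was -1.49 over the 3 genes on chromosome 8 and -0.38 over the 5 genes elsewhere, against -0.24 over leading regions off chromosomes 8, X and Y. Of these 5 genes, 1 fell and 0 rose, where 6.37% of such regions were called lower and 4.12% higher. Of the 31 regions of these genes, 5 fell and 0 rose, where 10.6% of all regions were called, 5.38% lower and 5.21% higher. Without C2 replicate 2, the library that stood apart, Olig1, Irx3 and Tubb3 were still called lower, and Six3 was also called.

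In C3 against OSKM, 3 leading regions fell and 1 rose. In this comparison 18.8% of 20738 leading regions of genes were called, with 8.84% lower and 9.95% higher. Neurog1, Olig1 and Tubb3 fell, and Six3 rose. The median log2 fold change over the 8 genes was -0.64, against -0.14 over all leading regions. It was -0.75 over the 3 genes of chromosome 8 and 0.15, of opposite sign, over the 5 genes elsewhere, against -0.11 over leading regions off chromosomes 8, X and Y. Of these 5 genes, 2 fell and 1 rose, where 6.66% of such regions were called lower and 10.5% higher. Of the 31 regions of these genes, 6 fell and 2 rose, where 22.0% of all regions were called, 8.52% lower and 13.5% higher. Without OSKM replicate 1 only Neurog1 and Olig1 were called, and without OSKM replicate 2 only Neurog1 and Six3. The C2 and C3 comparisons share the OSKM libraries and are not independent of each other.

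**Figure D1:**
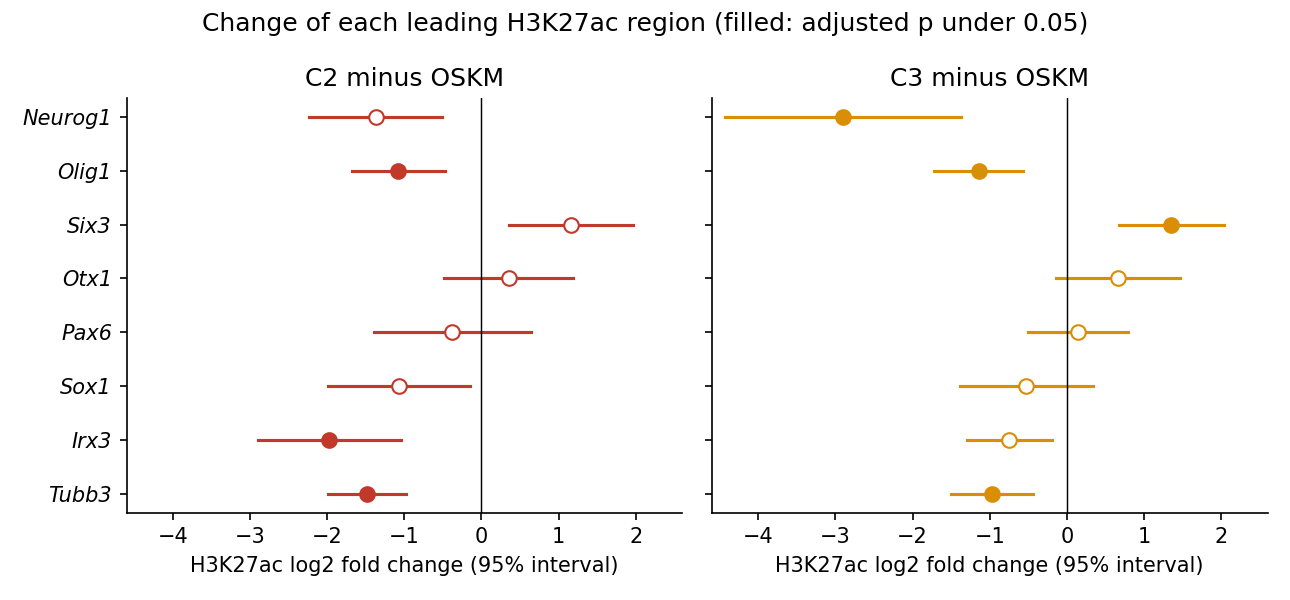
Log2 fold change (x axis) of the leading H3K27ac region of each gene (rows) in C2 minus OSKM (left) and C3 minus OSKM (right), with 95% intervals from the limma fit of 2 libraries per line. Filled points have an adjusted p under 0.05: Olig1 and Tubb3 lie below 0 and are filled on both sides, Irx3 only on the left, and Neurog1 and Six3 only on the right.

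Neurog1, a proneural factor that commits progenitors to neurons, has a single region, chr13:56251376-56252611, which covers its start site and the promoter printed above. It had 3.17 and 3.13 RPM in C2, 1.47 and 0.460 in C3, and 5.40 and 7.79 in OSKM. Both artificial-factor lines lay below both OSKM libraries, and C3 lay lowest. In C3 it fell by 2.90 ± 0.66 on the log2 scale (SE, n = 2 libraries per line; adjusted p = 0.0196, limma). The log2 fold change was -3.81 without C3 replicate 1 and -1.99 without C3 replicate 2. The lowest value rests on 5 reads in C3 replicate 2, whose exact Poisson interval is 1.62 to 11.7 reads, counting error only. In C2 the log2 fold change was -1.37 ± 0.38 and did not pass the test (adjusted p = 0.0539), while the authors' deposited table gives an FDR of 0.0359 for it. The 2 artificial-factor lines did not differ at the threshold, with a log2 fold change of 1.56 in C2 over C3 and a 95% interval of -0.26 to 3.37 (adjusted p = 0.490). The C3 call was lost under quantile normalization (adjusted p = 0.0705).

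Olig1, a factor of oligodendrocyte and motor neuron progenitors, had its leading region over the whole gene at chr16:91269750-91272538. Its level was 22.4 and 16.8 RPM in C2, 16.3 and 14.1 in C3, and 30.2 and 34.2 in OSKM. All 4 artificial-factor libraries were below both OSKM libraries. It fell by 1.08 ± 0.26 in C2 (SE; adjusted p = 0.0392) and by 1.14 ± 0.25 in C3 (adjusted p = 0.0168) on the log2 scale. The C2 call ended when OSKM replicate 1 (adjusted p = 0.0616) or OSKM replicate 2 (0.136) was left out and under quantile normalization (0.0989), and the C3 call without OSKM replicate 2 (0.0615). In the authors' deposited table the C2 difference had an FDR of 0.127. C2 and C3 differed by 0.10, with a 95% interval of -0.61 to 0.80.

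**Figure D2:**
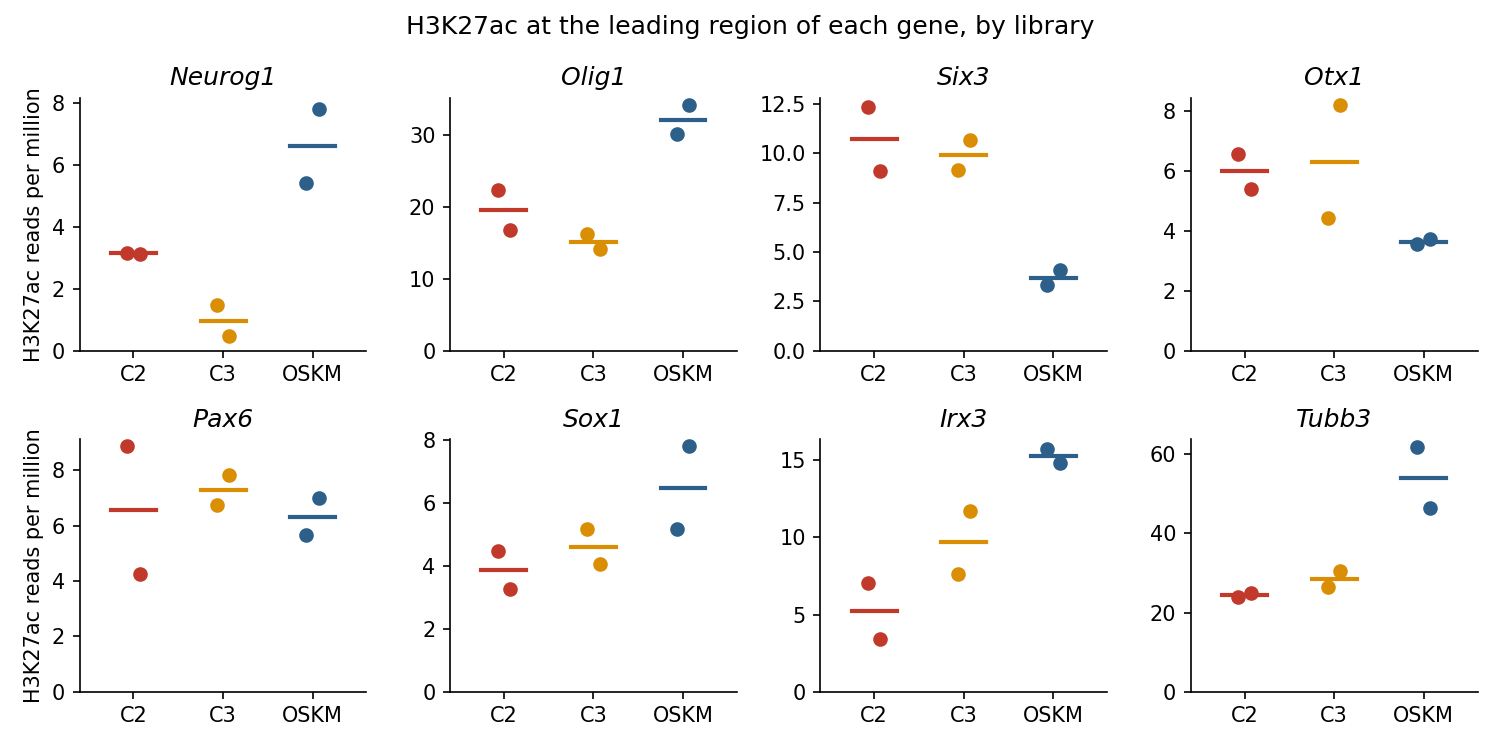
H3K27ac RPM (y axis, from 0) at the leading region of each of the 8 genes in C2, C3 and OSKM. Points are the 2 libraries of a line and the bar is their mean: Neurog1, Olig1, Irx3 and Tubb3 have both OSKM libraries above all 4 others, and Six3 and Otx1 have both below. At Sox1 the lower OSKM library and the higher C3 library both round to 5.16. The share of all leading regions that separate this way was not counted.

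Six3, a homeodomain factor needed for the forebrain and eye, had more H3K27ac in C3. Its leading region, chr17:85616293-85618570, ends 2264 bp before the start site and had 12.4 and 9.10 RPM in C2, 9.18 and 10.7 in C3, and 3.31 and 4.07 in OSKM. Both OSKM libraries were below the other 4. It rose in C3 with a log2 fold change of 1.35 ± 0.29 (SE; adjusted p = 0.0162), while the value in C2 was 1.16 ± 0.35 (adjusted p = 0.0694). The C3 call was lost without OSKM replicate 1 (adjusted p = 0.0520) and without C3 replicate 1 (0.0540). None of its 4 other regions was called in any comparison, and no region covers its start site.

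Otx1, another forebrain homeodomain factor, had its leading region at chr11:22000179-22001710 with 6.57 and 5.40 RPM in C2, 4.42 and 8.20 in C3, and 3.55 and 3.72 in OSKM. Both OSKM libraries were below the other 4, and the 2 C3 libraries lay far apart. The log2 fold change was 0.35 in C2, with a 95% interval of -0.49 to 1.19 (adjusted p = 0.554), and 0.66 in C3, with an interval of -0.14 to 1.46 (adjusted p = 0.214). All 6 of its regions had a higher C3 estimate than OSKM. One of them, chr11:21996108-21998127 inside the gene, rose in C3: it had 5.67 and 9.30 RPM in C3 and 1.45 and 3.14 in OSKM, a log2 fold change of 1.67 ± 0.45 (SE; adjusted p = 0.0354). This call was lost without OSKM replicate 1 (adjusted p = 0.116), without C3 replicate 1 (0.0983), without C3 replicate 2 (0.151), under quantile normalization (0.0725) and with all 6 libraries fitted together (0.0664). Summed over its 6 regions, Otx1 rose in C3 (log2 fold change 1.09, adjusted p = 0.00301 in a limma fit over gene sums). In the authors' deposited table, its region chr11:21994710-21995278 had an FDR of 0.0273 in C2 and 0.0388 in C3, both higher than OSKM. The limma fit called it in neither (adjusted p = 0.167 and 0.205). Neither OSKM library had a peak in this region or in chr11:21996108-21998127. Both regions were thus defined by the lines where they are high. Their values, and the gene sum that includes them, are therefore no independent evidence of a rise.

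Pax6, which directs eye and cortical progenitors, had 6 regions, and none was called in any comparison. Its leading region, chr2:105675759-105677200, lies within the gene, 6863 bp after the first start site. It had 8.88 and 4.27 RPM in C2, 6.74 and 7.83 in C3, and 5.65 and 7.01 in OSKM. The lines overlapped. The log2 fold change was -0.38 in C2, with a 95% interval of -1.39 to 0.64, and 0.15 in C3, with an interval of -0.50 to 0.80.

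Sox1, Irx3 and Tubb3 lie on chromosome 8, and this chromosome as a whole had less signal in C2 and C3. Its share of all reads in H3K27ac regions was 4.15% and 3.46% in C2, 4.29% and 3.84% in C3, and 7.61% and 7.48% in OSKM. In H3K9me3 regions it was 3.61% and 3.86% in C2, 4.25% and 4.06% in C3, and 6.14% and 5.99% in OSKM. Of the leading H3K27ac regions of genes on chromosome 8, 57.3% of 1028 were called in C2 and 54.2% of 1043 in C3, with median log2 fold changes of -1.35 and -1.06. Off chromosomes 8, X and Y, 10.5% were called in C2 and 17.2% in C3. The difference of these 3 genes and that of their chromosome cannot be told apart, so each is also given relative to the chromosome 8 median.

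**Figure D3:**
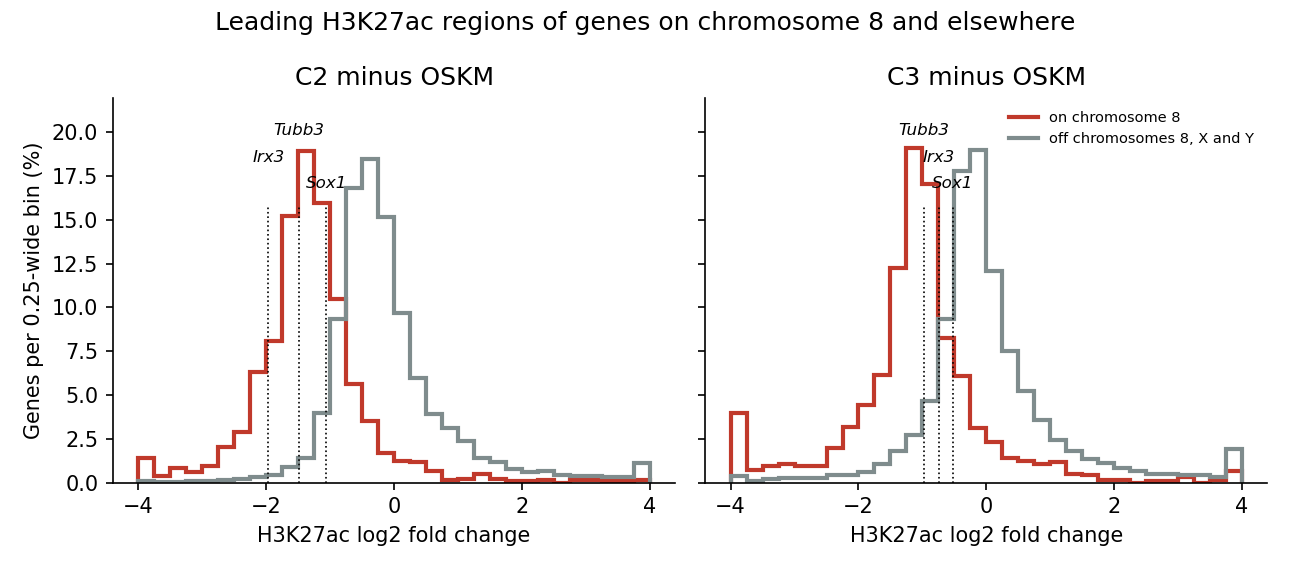
Distribution of log2 fold changes (x axis) of leading H3K27ac regions of genes, as the percentage of genes per bin (y axis), in C2 minus OSKM (left) and C3 minus OSKM (right); the end bins also hold all values beyond them. Dotted lines mark Sox1, Irx3 and Tubb3, which lie inside the distribution of genes on chromosome 8, whose median is -1.35 in C2 and -1.06 in C3.

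Tubb3 had the highest level per kilobase of the 8 genes over the 6 libraries together. Its leading region, chr8:123409150-123412827, covers the start site and the printed promoter and reaches into Mc1r. It had 23.9 and 24.9 RPM in C2, 26.5 and 30.4 in C3, and 61.8 and 46.3 in OSKM. The 4 artificial-factor libraries lay below both OSKM libraries. It fell by 1.49 ± 0.22 in C2 (SE; adjusted p = 0.0132) and by 0.97 ± 0.23 in C3 (adjusted p = 0.0223) on the log2 scale. Relative to the chromosome 8 median, the difference was -0.14 in C2 and 0.09 in C3, near the middle of the chromosome's genes. The C2 call held without each library in turn, and the C3 call ended when OSKM replicate 1 (adjusted p = 0.277) or OSKM replicate 2 (0.0624) was left out. In the authors' deposited table the C3 difference had an FDR of 0.0613. A region just past the gene's end, chr8:123422033-123422384, differed more in C3, with 0.737 and 1.20 RPM in C3 and 5.89 and 5.93 in OSKM. It fell by 2.62 ± 0.47 in C3 on the log2 scale (adjusted p = 0.00885, limma). The log2 fold change ranged from -2.80 to -2.44 when 1 library was left out. Only the OSKM libraries had a peak there, so the region was defined by the line where it is high. Its call is therefore no independent evidence, and its C3 values rest on 13 reads in each library. The region inside the gene, chr8:123412966-123414221, fell by 1.45 ± 0.36 in C2 (adjusted p = 0.0422) and by 1.32 ± 0.32 in C3 (adjusted p = 0.0226). The C2 call was lost without OSKM replicate 1 (0.130), without C2 replicate 2 (0.0623) and under quantile normalization (0.0932), and the C3 call without OSKM replicate 1 (0.0923) and without C3 replicate 2 (0.0522).

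Irx3 had 4 regions, and all 4 were lower in both libraries of C2 and of C3 than in either OSKM library. The share of chromosome 8 regions that separate this way was not counted, so this is not shown to be particular to Irx3. The leading region, chr8:91802469-91804711, lies 815 bp upstream of the start site and had 7.03 and 3.41 RPM in C2, 7.65 and 11.7 in C3, and 15.7 and 14.8 in OSKM. It fell by 1.97 ± 0.41 in C2 on the log2 scale (SE; adjusted p = 0.0260). The log2 fold change was -2.61 without C2 replicate 1 and -1.33 without C2 replicate 2, and the call was lost under quantile normalization (adjusted p = 0.0757). In C3 its log2 fold change was -0.75 ± 0.24 and did not pass the test (adjusted p = 0.0581). Relative to the chromosome 8 median the values were -0.62 in C2 and 0.31 in C3. The small region over the start site, chr8:91801560-91801957, had 1.47 and 0.142 RPM in C2, 0.623 and 0.460 in C3, and 3.63 and 2.86 in OSKM. It fell by 2.48 ± 0.63 in C3 (adjusted p = 0.0280), and leaving out OSKM replicate 1 (0.147) or OSKM replicate 2 (0.0639) or fitting all 6 libraries together (0.102) ended that call. The region at the gene's far end, chr8:91797736-91798731, fell by 2.26 ± 0.41 in C2 (adjusted p = 0.0199), a call that quantile normalization ended (0.0512). It also overlaps Gm39222, whose share of the signal cannot be told apart.

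**Figure D4:**
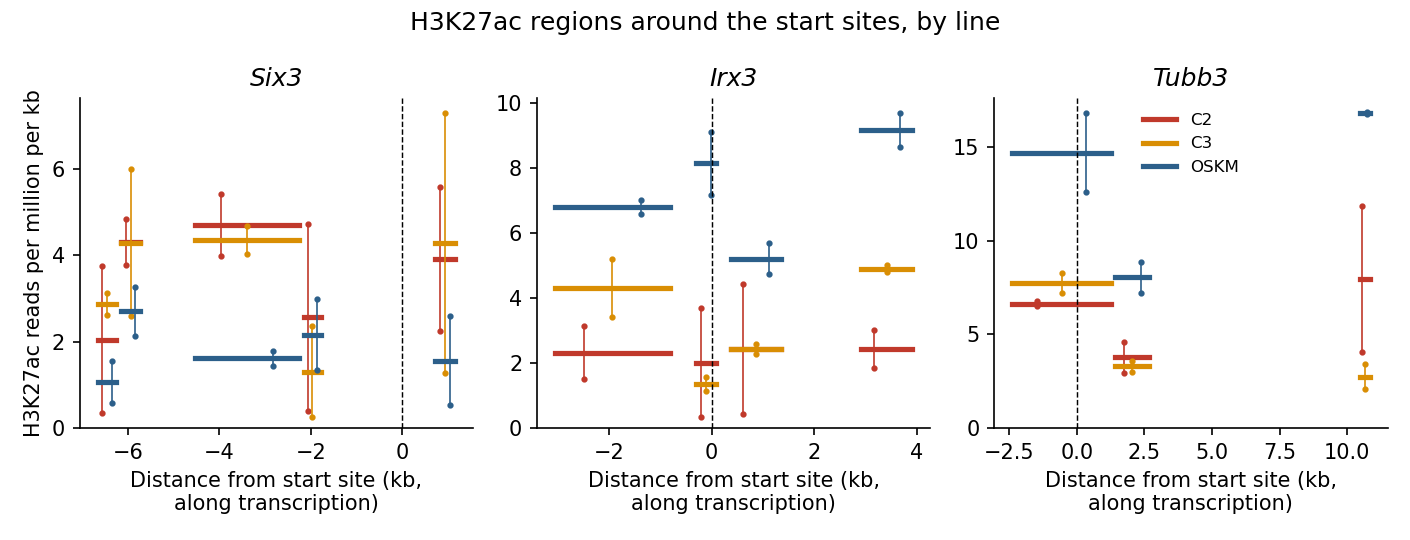
H3K27ac RPM per kb (y axis) of every region of Six3, Irx3 and Tubb3 against distance from the start site in kb along transcription (x axis; dashed line, start site). Thick bars span a region at the mean of a line, and dots joined by thin lines are its 2 libraries: OSKM lies highest at all 4 Irx3 regions and all 3 Tubb3 regions and lowest at the widest Six3 region. Only OSKM libraries had a peak at the Tubb3 region furthest from the start site. The share of chromosome 8 regions with OSKM highest was not counted.

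Sox1 had its leading region at chr8:12395568-12396201, which begins 49 bp after the start site. It had 4.48 and 3.27 RPM in C2, 5.16 and 4.05 in C3, and 5.16 and 7.79 in OSKM. C2 lay below OSKM, and C3 reached it. The log2 fold change was -1.06 ± 0.40 in C2 (SE; adjusted p = 0.121) and -0.53 ± 0.37 in C3 (adjusted p = 0.348), and relative to the chromosome 8 median it was 0.28 in C2 and 0.53 in C3. Summed over its 4 regions, Sox1 fell in C2 (log2 fold change -1.28, adjusted p = 0.0394 in a limma fit over gene sums). None of its single regions was called. In the authors' deposited table, its region chr8:12394632-12395298 had an FDR of 0.0479 in C2 against OSKM, with a log2 fold change of -1.50.

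C2 and C3 were also compared with each other, since their factor sets differ by ZFATF3 in C2 and ZFATF4 in C3. No leading region of the 8 genes and none of the 31 H3K27ac regions was called, where 0.0581% of all regions were. In this comparison 0.101% of 20747 leading regions of genes were called. At an unadjusted p under 0.05 (limma), 1 of the 8 leading regions differed, that of Irx3, and edgeR on recovered reads called 0. The shares of all leading regions passing these thresholds are not given here, so these counts have no background beside them. The Irx3 region had a log2 fold change of -1.19 in C2 over C3 and a 95% interval of -2.13 to -0.26 (adjusted p = 0.291). The intervals of the other 7 genes included 0. The lack of calls does not show that the lines are alike. The Irx3 log2 fold change was -1.84 without C2 replicate 1 and -0.54 without C2 replicate 2, the library that stood apart.

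The genes nearest in pattern were found by the Euclidean distance between centred log2(RPM + 1) values of leading H3K27ac regions over the 6 libraries. Neurog1 was closest to Tmem221 (0.354) and Nek5 (0.412), both on chromosome 8, and Olig1 to Cars2 on chromosome 8 (0.196) and Cdca7l (0.199). Irx3 was closest to Gm34795 (0.250) and Atp11a (0.363), also on chromosome 8. Neurog1 and Olig1, on other chromosomes, thus had nearest neighbours on chromosome 8. Six3 was closest to Gm36677 (0.114) and Rarres1 (0.233), Pax6 to Gm42303 and Hey1 (0.134 each), and Sox1 to Zfp317 (0.168) and Lair1 (0.180). The nearest region to Otx1 is shared by Nefm and A230070E04Rik (0.186), and the nearest to Tubb3 by Col13a1 and Gm30121 (0.188). These distances describe the libraries and were not tested.

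H3K9me3 regions lay near 2 of the 8 genes, Six3 and Otx1, against 24.5% of all annotated genes. The other 6 genes had no H3K9me3 peak in any of the 6 libraries. At Otx1, the region chr11:21993713-21994701 lies just outside the gene's extent and had 14.4 and 29.9 RPM in C2, 8.01 and 5.87 in C3, and 22.3 and 13.1 in OSKM. Both C3 libraries lay below all others. It fell by 1.60 ± 0.33 in C3 on the log2 scale (SE; adjusted p = 0.00973). In this comparison 17.5% of 9793 leading H3K9me3 regions of genes were called, 16.0% lower and 1.48% higher. The call was lost without OSKM replicate 1 (adjusted p = 0.189). In C2 the log2 fold change against OSKM was -0.05, with a 95% interval of -0.77 to 0.68, and the difference of C2 over C3 was 1.55 ± 0.39 (adjusted p = 0.268). The overlapping H3K27ac region chr11:21993188-21994209 had 5.72 and 2.70 RPM in C2, 3.46 and 7.46 in C3, and 1.77 and 2.29 in OSKM.

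At Six3, the H3K9me3 region chr17:85611563-85613264 lies in Six3os1, upstream of Six3. It had 46.2 and 28.4 RPM in C2, 39.6 and 25.1 in C3, and 18.4 and 13.0 in OSKM. Both OSKM libraries were below the other 4. The log2 fold change was 0.90 ± 0.28 in C2 (SE, adjusted p = 0.116) and 0.72 ± 0.25 in C3 (adjusted p = 0.107), and neither passed the test. In C3, edgeR called it (adjusted p = 0.0327), as did limma with no filter (0.0218), while the authors' deposited FDR was 0.189. In C2 none of these called it (0.0519, 0.187 and 0.170). In C2 against OSKM, 6.19% of 9812 leading H3K9me3 regions of genes were called, and 0 of the 2 here. Of these 2, 1 had an unadjusted p under 0.05 (limma), and edgeR called 0. In C2 against C3, 0.256% were called, and again 0 of the 2 here, with 1 at an unadjusted p under 0.05 and 0 called by edgeR. The shares of all leading regions under the unadjusted threshold and with edgeR are not given here. Six3 therefore had higher estimates of both marks in the artificial-factor lines, in regions that do not overlap.

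**Figure D5:**
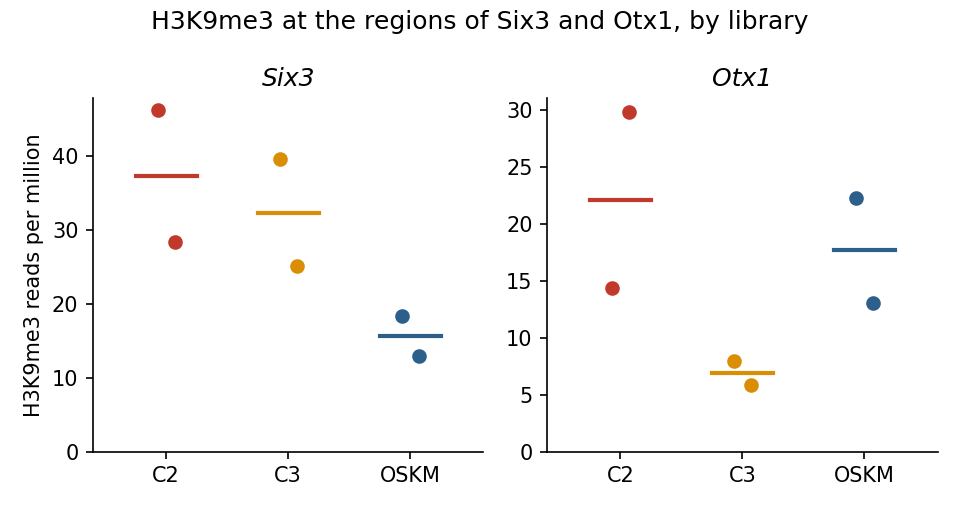
H3K9me3 RPM (y axis, from 0) at the region of Six3 and the region of Otx1 in C2, C3 and OSKM. Points are the 2 libraries of a line and the bar is their mean: at Otx1 both C3 libraries, at 8.01 and 5.87, lie lowest, and at Six3 both OSKM libraries, at 18.4 and 13.0, lie lowest.

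The HA libraries held no peak within 2500 bp of any of the 8 genes, in C2 at day 20 (12376 and 44939 peaks) or in Empty (10666 and 22632 peaks). The share of all annotated genes with such a peak was not counted, so this absence is not shown to be particular to these genes. The nearest C2 peak lay 3.89 kb from Tubb3, in replicate 2 only, and the median distance to the nearest peak was 238 and 206 kb in C2 and 363 and 237 kb in Empty. After duplicate removal, 2506011 and 3896935 tags remained in C2 and 1707437 and 1629753 in Empty, so binding too weak for a peak at this depth was not detectable.

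Of 69 other neuroectoderm genes listed by name, 2 of them as repressors of neuronal genes, 59 had an H3K27ac region. In C2 against OSKM, 55 could be tested, of which 2 rose and 11 fell, with a median log2 fold change of -0.51, against 12.9% of all leading regions called and a median of -0.28. The 11 include Rest, listed as a repressor of neuronal genes, and Sox2, which was also counted among the pluripotency markers above. Off chromosomes 8, X and Y, 2 of 52 rose and 8 fell, with a median of -0.45, where 4.12% of such leading regions were called higher and 6.37% lower. Msi1, an RNA-binding protein of neural stem cells, fell by 1.57 ± 0.20 on the log2 scale (SE; adjusted p = 0.0109). Zic5, a zinc-finger factor of the dorsal neural tube, fell by 1.57 ± 0.32 (adjusted p = 0.0251). Irx5, a neighbour of Irx3 in the same Iroquois cluster on chromosome 8, fell by 1.37 ± 0.35 (adjusted p = 0.0444). The median of leading regions on chromosome 8 was -1.35 in C2 and -1.06 in C3, so its fall and that of its chromosome cannot be told apart. Pax8, a paired-box factor of the midbrain-hindbrain boundary, rose with a log2 fold change of 1.89 ± 0.46 (adjusted p = 0.0383), and Dbx1, a homeodomain factor of spinal interneuron progenitors, rose with 3.53 ± 0.88 (adjusted p = 0.0418). In C3 against OSKM, 57 could be tested, of which 2 rose and 4 fell, with a median of -0.04, a share below the 18.8% of all leading regions called. Off chromosomes 8, X and Y, 2 of 53 rose and 3 fell, where 10.5% of such leading regions were called higher and 6.66% lower. Pax8 and Dbx1 rose again, with log2 fold changes of 2.56 ± 0.44 (adjusted p = 0.00785) and 4.14 ± 0.72 (adjusted p = 0.00824). Msi1 fell by 1.66 ± 0.23 (adjusted p = 0.0050), Irx5 by 1.30 ± 0.35 (adjusted p = 0.0329) and Elavl3, an RNA-binding protein of neurons, by 1.25 ± 0.27 (adjusted p = 0.0166). Dbx1 had 42.0 and 16.7 normalized reads in C2 and 1.02 and 1.83 in OSKM, where OSKM is near the floor of 1 read, so its fold depends on the added 1. Its C2 value was 2.89 without C2 replicate 1 and 4.17 without C2 replicate 2. In C2 against C3, 0 of 55 were called. Quantile normalization ended the C2 calls of Zic5 (adjusted p = 0.0820), Pax8 (0.0705), Irx5 (0.0809) and Dbx1 (0.0983), and testing without a filter on low regions ended that of Dbx1 (0.0505). Without OSKM replicate 2 Irx5 was lost in both comparisons (adjusted p = 0.281 in C2 and 0.200 in C3), as it was without C2 replicate 2 (0.102), C3 replicate 1 (0.0510) or C3 replicate 2 (0.103). Elavl3 was lost without OSKM replicate 1 (0.0605) or 2 (0.0502), Dbx1 in C2 without OSKM replicate 1 (0.0913) and Pax8 in C3 without C3 replicate 1 (0.0642), and Pax8 in C2 was lost without C2 replicate 1 (0.130), C2 replicate 2 (0.0837) or OSKM replicate 1 (0.0948).

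For H3K9me3, 10 of these genes could be tested. In C2 against OSKM 1 rose and 0 fell, where 0.540% of leading regions were called higher and 5.65% lower. In C3 against OSKM 1 rose and 2 fell, where 1.48% were called higher and 16.0% lower. Rbfox3, a splicing factor of mature neurons, rose in C2 with a log2 fold change of 1.38 ± 0.29 (SE; adjusted p = 0.0240) and in C3 with 1.60 ± 0.25 (adjusted p = 0.00197). Mapt, which encodes the microtubule protein tau, fell by 2.19 ± 0.35 in C3 (adjusted p = 0.00226), and Dbx1 fell by 1.94 ± 0.44 in C3 (adjusted p = 0.0154). At Dbx1, C3 thus had more H3K27ac and less H3K9me3 than OSKM, as it did at Otx1. The called H3K27ac and H3K9me3 regions of Otx1 do not overlap, and neither OSKM library had a peak in that H3K27ac region. Without OSKM replicate 1, the C2 call of Rbfox3 (adjusted p = 0.0786) and the C3 calls of Mapt (0.0606) and Dbx1 (0.245) were lost. Without OSKM replicate 2, the C2 call of Rbfox3 (0.136) and the C3 call of Dbx1 (0.0772) were lost. The C2 call of Rbfox3 also ended under quantile normalization (0.0541) and with no filter (0.0516).

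The genes whose leading H3K27ac region varied most like that of a member over the 6 libraries were taken by Euclidean distance between centred log2 values. For Six3 the nearest were Gm36677 (distance 0.114) and Rarres1 (0.233). For Neurog1 they were Tmem221 (0.354) and Nek5 (0.412), both on chromosome 8, and for Irx3 Gm34795 (0.250) and Atp11a (0.363), also on chromosome 8. For Olig1 they were Cars2 (0.196) and Cdca7l (0.199), for Pax6 Gm42303 and Hey1 (both 0.134), and for Sox1 Zfp317 (0.168) and Lair1 (0.180). Otx1 was nearest to the region shared by Nefm and A230070E04Rik (0.186) and Tubb3 to the region shared by Col13a1 and Gm30121 (0.188). Neurog1 lies on chromosome 13, so its nearest patterns belong to genes of another chromosome.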

How the data were processed

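Histone and HA libraries came from 22 samples, of which 16 have a peak file and 6 are inputs, not analysed here on their own. CASAVA 1.8.2, Bowtie2 2.2.5, SAMtools 1.3, DiffBind 1.16.2 and mm10 are named in the submitters' processing notes. Peaks were called per library with MACS 2.1.0.20150731 (histone marks) or 2.1.1.20160309 (HA) at a q-value of 0.01, per the file headers. The authors' deposited peak files give pileup as a signal, significance as -log10 p-value and q-value, and fold enrichment as a ratio. The authors' 6 deposited region tables give a signal per library (normalized reads), log2 fold changes, p-values and FDRs. Dividing each library by its lowest value gave whole reads for 100% of values (tolerance 1e-06), the lowest being 1 read. Whether input reads were subtracted is not given in the sources used here. C2 and OSKM share an input pair and C3 has its own, so input and line cannot be told apart.

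RPM values are recovered reads per 1000000 reads in regions of the mark. Tests used limma 3.58.1 (R 4.3.3) with a trend on log2(normalized reads + 1) of the authors' values, per table, after dropping the 25% of regions lowest by mean, and Benjamini-Hochberg adjustment over the rest. Fold changes are on that scale and understate those of low regions. With recovered reads, edgeR 4.0.16 called 14675 H3K27ac regions in C2 against OSKM. The fits were run on simulated counts with a fixed dispersion and no shift of a whole chromosome. That run checks the procedure and does not bear on the calls reported here. Labels do not say how replicates were made, so p-values measure only the spread between samples. Gene extents, start sites and promoters are RefSeq GRCm38.p6. The members and lists were chosen with earlier results of these data known. All 8 genes are named; of the other neuroectoderm genes called, the 3 with the largest change in each direction are named per comparison, and 2 nearest patterns per gene. Alternatives were no filter, a pseudocount of 8, quantile normalization, TMM outside chromosomes 8, X and Y, edgeR, the authors' FDR, a replicate block, window sums, leaving out each library, stricter peaks (a -log10 q of 5 or a 200 bp overlap) and, chosen after seeing the data, 1 fit over the 6 libraries. Other tools were Python 3.11.15, matplotlib 3.10.9 for figures, SciPy 1.17.1, pandas 2.3.3 and NumPy 2.4.6. Intervals of reads cover counting error only.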

Additional observations from a re-analysis of the deposited data

How the results depend on the processing

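Of the calls at the 8 genes, that of Tubb3 in C2 against OSKM held under every alternative tried, and the others that were lost are given beside their values. For H3K27ac in C2 against OSKM, 3 genes were called as reported, against 5 with no filter, 1 under quantile normalization, 5 with edgeR, 5 with window sums and 2 to 4 when leaving out 1 library. In C3 against OSKM, 4 were called, against 5 with edgeR, 5 with a pseudocount of 8, 6 with window sums, 3 under quantile normalization, 3 in the authors' deposited table and 2 to 5 when leaving out 1 library. In C2 against C3, 0 were called, against 0 to 1. For H3K9me3, C2 against OSKM gave 0 calls, against 0 to 1. C3 against OSKM gave 1, against 2 with no filter, 2 with edgeR and 0 to 2 when leaving out 1 library. C2 against C3 gave 0, against 1 with no filter and 0 to 1 when leaving out 1 library. Over all regions, H3K27ac calls in C2 against OSKM numbered 10691 as reported and 4101 under quantile normalization, and calls in C2 against C3 numbered 59 as reported and 7790 without C2 replicate 1. The HA peak counts of 0 did not change with the stricter peaks or overlap. The cause of these changes was not tested.

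Uncalled estimates that changed sign when 1 library was left out were the following log2 fold changes, with their lowest and highest values. In C2 against OSKM Pax6 ranged from -1.03 to 0.27, and in C3 against OSKM from -0.018 to 0.31. In C2 against C3 Olig1 ranged from -0.25 to 0.44, Six3 from -0.52 to 0.20, Otx1 from -0.56 to 0.015 and Pax6 from -1.15 to 0.17. For H3K9me3 Otx1 in C2 against OSKM ranged from -0.52 to 0.43, and was 0.13 under quantile normalization and 0.12 with edgeR. H3K9me3 at Six3 in C2 against C3 ranged from -0.20 to 0.58. Quantile normalization moved the median of all H3K9me3 regions in C2 against OSKM to 0.01, against -0.15.

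The labels do not say that replicate numbers mark shared batches, so they only name libraries. For each pair of lines, the replicate 1 minus replicate 2 differences of the regions were correlated between the lines. These correlations ranged from -0.05 to 0.35, the highest for H3K27ac in C2 against C3. With a replicate block, H3K27ac calls were 5 in C2 against OSKM, 4 in C3 against OSKM and 1 in C2 against C3, which was Irx3 (adjusted p = 0.00476), and H3K9me3 calls were 1, 2 and 1. The block raised calls over all H3K27ac regions in C2 against C3 to 13562. With 2 libraries per line, small differences at regions with few reads were not detectable.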
